A study of Mus musculus with 2 samples.

Results

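Cholesterol synthesis, uptake and efflux was followed through 31 genes, chosen by name from the 32285 genes counted in each library of mouse CD8+ T cells. The set held 19 enzymes of the pathway that builds cholesterol, 5 genes of the machinery that senses sterols and 7 genes that carry, store or export cholesterol or control its export. The study compared cytotoxic CD8+ T cells, which destroy infected and tumour cells, with and without electrical stimulation delivered through the matrix. It held 1 single-cell library labelled HC and 1 labelled NC, both from murine lymph node. Neither abbreviation is spelled out in the labels, and which library was stimulated is not stated there. They also do not give strain, age, sex, number of animals, culture conditions, or the dose and duration of the stimulus. The 10x Genomics 3′ kit (v3.1) was used for each library, and in it every captured RNA molecule is counted once by a unique molecular identifier (UMI) near its 3′ end.

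Cells build cholesterol from acetyl-CoA: the mevalonate steps make isoprenoid units that are joined into farnesyl diphosphate, and a longer chain of enzymes turns these through squalene and lanosterol into cholesterol. When sterols in the endoplasmic reticulum run low, SCAP escorts the membrane-bound factor SREBP2 to the Golgi, where it is cut and freed to switch on nearly every enzyme of the route; INSIG proteins hold the complex back when sterols are plentiful. Sterol excess acts through the LXR receptors, which raise the exporters ABCA1 and ABCG1 and the gene Srebf1. Activated T cells are known to need this pathway for membrane growth before division.

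In what follows, 22 genes are called SREBP2-type (the 19 enzymes, Insig1, Srebf2 and Stard4) and 3 are called LXR-type (Abca1, Abcg1 and Srebf1), from their known regulation in other cells. The remaining 6 genes, Insig2, Scap, Nr1h2, Soat1, Npc1 and Npc2, belong to neither type. Srebf1 has several listed starts, and counts near the 3′ end cannot tell its transcripts apart. Whether LXR controls Srebf1 in these cells was not tested, so its level is not read as LXR activity.

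The upstream sequences were searched for short patterns. RefSeq start sites on the build GRCm38.p6 were found for 25 of the 31 genes. The NF-Y box, CCAAT on either strand, is bound by a factor known to act beside SREBP2, and it lay within the window of 300 bases around a start in 17 of 18 SREBP2-type genes (94.4%), against 43.2% of the 6983 genes in the table with at least 5 CPM and 41.1% of all 27025 genes. Over all 25 members the count was 21 (84%). The sterol response element, searched as TCACNCCAC on both strands, was matched in 1 member, Hmgcs1, or 4%, against 1.44% of all genes. The Sp1 box GGGCGG was in 22 of 25 members (88%), against 71.4% of genes with at least 5 CPM and 38.2% of all genes. The E-box CACGTG was in 6 members (24%), against 12.4% and 8.09%. The LXR response element was searched only as a perfect spaced direct repeat, with no mismatch allowed in either copy. It was matched in 0 members, in 0 of the 6983 genes with at least 5 CPM and in 0.0148% of all genes. Because so strict a pattern is hardly ever matched, this search cannot decide whether a member, Abca1 included, holds an imperfect form of the element. All patterns were searched on both strands and each was counted on its own, so that matches of different patterns may overlap. A gene was counted if any of its listed starts had a match. The SREBP2-type class was named from known regulation, so its NF-Y share is not independent of that choice. A match is a description only, and a missing match says only that those letters are not in this window.

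These 4 windows are printed as examples: the 1 member with a sterol response element match, the member with 5 NF-Y boxes, a sensing gene and the 1 exporter found in the table. They were chosen after the matches were seen, and in this shorter window the enzyme Acat2, like Abca1, held none of either, while the LXR-type Srebf1 held NF-Y boxes. Each covers 250 bases before the start, 5′ to 3′ on the strand of the gene, with matches to the sterol response element and the NF-Y box in capitals. Hmgcs1 lies at chr13:119690101-119690350 on the plus strand, Mvk at chr5:114444019-114444268 on the plus strand, Insig1 at chr5:28071162-28071411 on the plus strand and Abca1 at chr4:53159896-53160145 on the minus strand.
Hmgcs1: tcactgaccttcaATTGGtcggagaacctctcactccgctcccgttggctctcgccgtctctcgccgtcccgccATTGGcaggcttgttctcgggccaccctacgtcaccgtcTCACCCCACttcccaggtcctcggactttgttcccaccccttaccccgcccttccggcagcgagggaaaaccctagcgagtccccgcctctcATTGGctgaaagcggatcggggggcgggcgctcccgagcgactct
Mvk: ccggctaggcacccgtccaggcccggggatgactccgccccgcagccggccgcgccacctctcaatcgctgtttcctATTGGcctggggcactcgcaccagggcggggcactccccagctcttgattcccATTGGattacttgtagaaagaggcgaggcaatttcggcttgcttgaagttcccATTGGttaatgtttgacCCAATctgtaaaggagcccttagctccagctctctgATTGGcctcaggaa
Insig1: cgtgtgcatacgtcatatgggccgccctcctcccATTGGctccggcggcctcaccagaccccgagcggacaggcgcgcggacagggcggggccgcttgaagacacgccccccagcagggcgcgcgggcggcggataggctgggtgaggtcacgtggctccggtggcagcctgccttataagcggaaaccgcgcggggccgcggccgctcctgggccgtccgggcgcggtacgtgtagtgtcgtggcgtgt
Abca1: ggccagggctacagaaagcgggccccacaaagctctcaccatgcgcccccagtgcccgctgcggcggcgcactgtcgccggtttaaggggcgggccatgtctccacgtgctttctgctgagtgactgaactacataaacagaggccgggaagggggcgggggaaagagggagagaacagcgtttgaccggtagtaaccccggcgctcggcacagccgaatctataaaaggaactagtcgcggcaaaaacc
Hmgcs1, which makes HMG-CoA at the entry to the pathway, held the sterol response element match at -137 and 3 NF-Y boxes. Mvk, whose product phosphorylates mevalonate, held 5 NF-Y boxes and Insig1 held 1. The window of Abca1, which exports cholesterol to lipid-poor carrier particles, held none of either.

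The HC library held 15495 barcodes and 116897716 UMIs, and the NC library 14798 barcodes and 117408492 UMIs. Cells were kept if they had 500 genes and 1000 UMIs or more and no more than 10% mitochondrial UMIs, 13617 in HC and 13641 in NC. Their median depth was 7425 UMIs in HC and 6898 UMIs in NC, and mitochondrial genes gave 4.35% of UMIs in HC and 4.01% in NC. Of HC cells 98.3% carried a Cd8a or Cd8b1 UMI and lacked Cd4, and of NC cells 98.4%. Mki67, the gene of a nuclear protein of cycling cells, had at least 1 UMI in 9425 HC cells (69.2%) and 7285 NC cells (53.4%). There were 49 kept barcodes present in both libraries. Neither group was replicated, with 1 library each, so no test between HC and NC was possible, library and group cannot be told apart, and every 95% interval covers counting error only. Levels are in CPM, UMIs per 1000000 UMIs of the kept cells, and since each molecule is tagged once near its 3′ end they were not divided by gene length. A count of 0 allowed at most 0.0262 CPM in HC and 0.0259 CPM in NC.

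Most of the route from acetyl-CoA to cholesterol was higher in HC than in NC, by a modest margin, while the exporters were lower. Summed over the 19 enzymes, HC cells held 1138 CPM and NC cells 926 CPM, a log2 ratio of HC over NC of 0.30 (0.29 to 0.31), or 1.23-fold. The 8 mevalonate-step genes carried most of this, at 684 CPM in HC and 516 CPM in NC (log2 ratio 0.41), whereas the 11 genes from squalene to cholesterol stood at 454 CPM in HC and 410 CPM in NC (0.15). The LXR-type genes summed to 31.4 CPM in HC and 35.4 CPM in NC, a log2 ratio of -0.17 (-0.24 to -0.11). They did not move together: Abcg1 was lower in HC (-0.44) and Srebf1 higher (0.090). Srebf1 gave 18.7 CPM of this sum in HC and 17.5 CPM in NC. Abca1, also lower in HC, added only 0.559 CPM in HC and 1.35 CPM in NC to the sum. The median log2 ratio over the 8704 genes that reached 5 CPM in HC or NC was -0.029.

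A ratio of 1.5-fold was used as the size of a call, and a smaller size, 1 library at least 25% above the other, was read in the same way. Of the 31 genes 29 reached 5 CPM; Tm7sf2 and Abca1 did not. Only Fdps was at least 1.5-fold higher in HC, where 1.93% of all genes were, and 0 members were 1.5-fold lower, where 1.47% of all genes were. At the 25% size 6 members were higher in HC (Hmgcs1, Mvk, Pmvk, Fdps, Fdft1 and Stard4), where 7.61% of all genes were, and 1 was lower (Abcg1), where 7.69% were. All 6 that were higher are SREBP2-type, as are 21 of the 29 members that reached 5 CPM. The SREBP2-type genes had a median log2 ratio of 0.23, with 18 of 21 above 0, where 3812 of 8704 genes were.

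The highest of the mevalonate-step genes in both libraries was Fdps, which joins isoprenoid units into farnesyl diphosphate, the branch point to sterols, ubiquinone, dolichol and prenylated proteins. It stood at 287 CPM in HC and 184 CPM in NC, 1.55-fold higher in HC with a log2 ratio of 0.64 (0.61 to 0.66). Windows of 91 bases in the last 500 bases of its GENCODE vM21 transcripts were found in transcripts of other genes for 39.7% of the windows (Gm3571, Gm43738, Gm5873 and Gm8163), so that its count is uncertain. Without Fdps, an alternative chosen after its value was seen, the summed SREBP2-type log2 ratio was 0.21, against 0.29 with it.

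The other early enzymes followed. Hmgcs1 stood at 127 CPM in HC and 101 CPM in NC (log2 ratio 0.34), Mvk at 23.4 CPM in HC and 17.0 CPM in NC (0.46), and Pmvk, which adds the next phosphate, at 95.7 CPM in HC and 70.2 CPM in NC (0.45). Their intervals in HC and NC did not overlap. Acat2, which condenses acetyl-CoA units in the cytosol, stood at 27.5 CPM in HC and 22.3 CPM in NC (0.30), and Mvd, which removes carbon dioxide to give isopentenyl diphosphate, at 26.1 CPM in HC and 22.1 CPM in NC (0.24). Acat2 shares 21.3% of its end windows with Acat3, which had 15 UMIs in HC and 14 UMIs in NC.

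Not every enzyme of these steps was higher in HC. Idi1, which interconverts the isoprenoid isomers, stood at 73.5 CPM in HC and 73.4 CPM in NC, a log2 ratio of 0.0029 (-0.04 to 0.05), and 35.9% of its end windows are shared with the genes Gm13502 and Gm35570. Ggps1, which leads isoprenoids away from sterols to geranylgeranyl diphosphate for protein prenylation, stood at 23.5 CPM in HC and 25.4 CPM in NC (-0.11). It was the only enzyme with an interval wholly below 0, from -0.19 to -0.04.

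From squalene on, the margin was smaller and varied by step. Fdft1, squalene synthase and the committed step to sterols, stood at 35.6 CPM in HC and 28.0 CPM in NC (log2 ratio 0.34). Sqle, which adds oxygen to squalene, stood at 46.0 CPM in HC and 39.3 CPM in NC (0.23), Lss, which folds it into lanosterol, at 11.0 CPM in HC and 8.84 CPM in NC (0.32), and Nsdhl, which helps remove methyl groups, at 21.5 CPM in HC and 17.9 CPM in NC (0.27). These 4 were the ones past 0.20 on the log2 scale among those that reached 5 CPM.

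The remaining late enzymes lay nearer to 0. Ebp, a sterol isomerase and the highest of the late steps, stood at 110 CPM in HC and 99.5 CPM in NC (0.15). Msmo1, which oxidises the methyl groups, stood at 57.3 CPM in HC and 51.3 CPM in NC (0.16), and Cyp51, which removes a methyl group of lanosterol, at 99.6 CPM in HC and 92.05 CPM in NC (0.11). For Hsd17b7, a sterol ketone reductase, the values were 9.58 CPM in HC and 10.03 CPM in NC (-0.066), for Sc5d, which introduces a ring double bond, 39.5 CPM in HC and 40.4 CPM in NC (-0.030), and for Dhcr7, which reduces a ring double bond, 19.1 CPM in HC and 18.9 CPM in NC (0.013). The intervals of these last genes include 0. Tm7sf2, a sterol reductase that reached only 4.77 CPM in HC and 3.95 CPM in NC, stood at 0.27 (0.09 to 0.46), and at -0.085 after cells were thinned to 2000 UMIs. The 4 steps that use molecular oxygen (Sqle, Cyp51, Msmo1 and Sc5d) summed to 242 CPM in HC and 223 CPM in NC, a log2 ratio of 0.12.

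**Figure D1:**
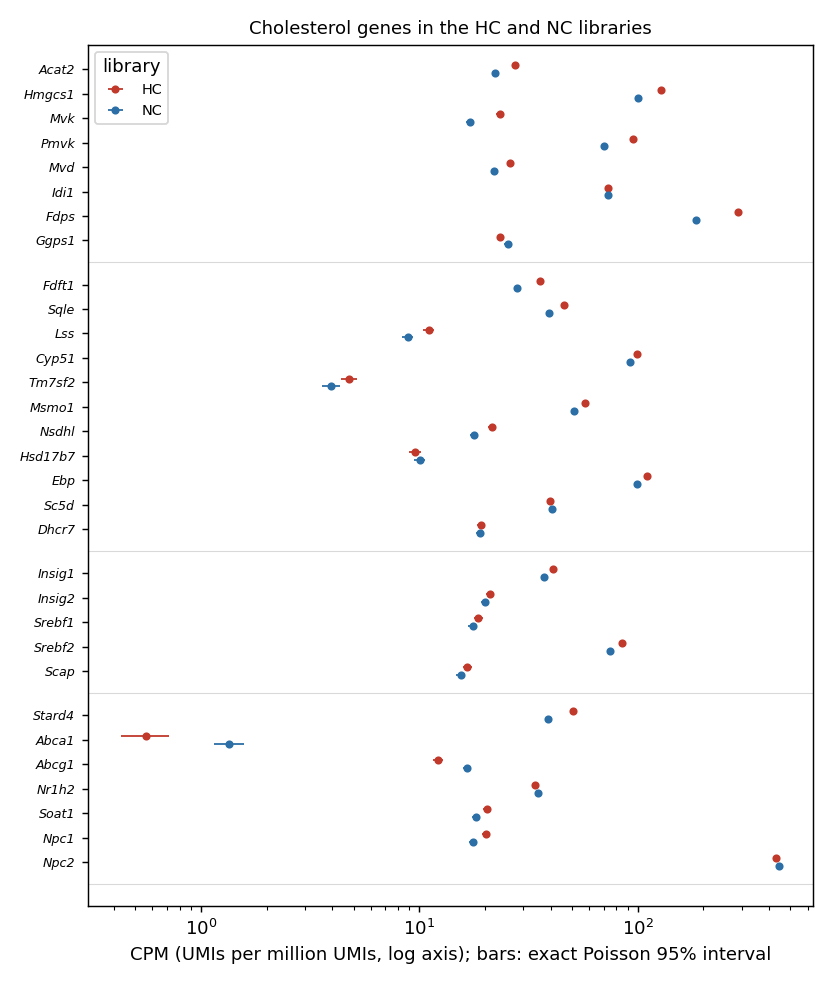
Level of each of the 31 genes in the HC and NC libraries, in CPM on a log axis, with exact Poisson 95% intervals for counting error only; horizontal lines part the mevalonate steps, the steps from squalene to cholesterol, sensing, and transport and storage. Npc2 and Fdps stand highest and Abca1 lowest in both libraries, and Fdps shows the widest gap among the synthesis enzymes, 287 CPM in HC and 184 CPM in NC.

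The sensing genes lay between 0.078 and 0.19 on the log2 scale of HC over NC. Srebf2, which encodes SREBP2, stood at 85.0 CPM in HC and 74.4 CPM in NC (log2 ratio 0.19, 0.15 to 0.23). Scap, its escort, stood at 16.6 CPM in HC and 15.5 CPM in NC (0.10), and Insig1, the retention factor that SREBP2 itself induces, at 41.0 CPM in HC and 37.2 CPM in NC (0.14). Insig2, the retention factor less dependent on SREBP2, stood at 21.1 CPM in HC and 20.01 CPM in NC (0.078), with an interval that includes 0. Srebf1, which encodes the factor of fatty acid synthesis and is induced by LXR, stood at 18.7 CPM in HC and 17.5 CPM in NC (0.090). Of these 5 genes 0 were called at the 25% size, a count too small to read against 7.61% of all genes higher and 7.69% lower.

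The exporters had the largest ratios below 0. Abcg1, which loads cholesterol onto lipoprotein particles, stood at 12.2 CPM in HC and 16.5 CPM in NC, 1.36-fold lower in HC with a log2 ratio of -0.44 (-0.54 to -0.34). With the Mki67 share of both libraries set alike it was -0.26, inside the 25% size. Abca1 had 64 UMIs in HC and 156 UMIs in NC, 0.559 CPM in HC and 1.35 CPM in NC, a log2 ratio of -1.27 (-1.71 to -0.84). It lay below the 5 CPM minimum and so was not counted among the calls. Markers of other cells moved with these genes: the 5 B cell markers summed to 16.5 CPM in HC and 35.4 CPM in NC, with all 5 detected in both libraries. Most of that gap was Igkc, an immunoglobulin light chain gene, at 1.99 CPM in HC and 20.8 CPM in NC, while Cd79b ran the other way at 13.9 CPM in HC and 12.5 CPM in NC. The 6 myeloid markers summed to 3.04 CPM in HC, where 2 were detected, and 6.503 CPM in NC, where 4 were, with C1qa and C1qb at 0 in both and Lyz2 at 0 UMIs in HC and 416 UMIs in NC, all from 14 NC cells, and Cd68 at 3.03 CPM in HC and 2.88 CPM in NC. Leaving out the 1717 HC cells and 1610 NC cells that held a UMI of any of these 11 markers, an alternative chosen after the data were seen, gave log2 ratios of -0.47 for Abcg1 and -1.245 for Abca1.

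Carriers and storage genes split. Stard4, a cytosolic sterol carrier and a target of SREBP2, stood at 50.8 CPM in HC and 38.8 CPM in NC (log2 ratio 0.39). Npc1, which passes cholesterol out of the lysosome membrane, stood at 20.2 CPM in HC and 17.6 CPM in NC (0.20), and Soat1, which makes cholesterol esters for storage, at 20.4 CPM in HC and 18.3 CPM in NC (0.16). Nr1h2, which encodes LXR beta, stood at 33.9 CPM in HC and 35.1 CPM in NC (-0.047), with an interval that includes 0. Npc2, the soluble partner of NPC1 that hands it cholesterol in the lysosome, was the most abundant of all 31 genes, at 430 CPM in HC and 443 CPM in NC (-0.041, and 0.043 with the Mki67 share set alike), and gave 22.8% of all member UMIs in HC. Neighbours in the order of levels were often within counting error. Hmgcs1 and Ebp overlapped in NC, at 101 CPM and 99.5 CPM, as did Ggps1 and Mvk in HC, at 23.5 and 23.4 CPM.

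Measured per cell, the difference ran from the lower to the upper part of the distribution. After each cell was thinned to 2000 UMIs, which left out 94 HC cells and 133 NC cells, a cell carried on average 2.10 ± 1.87 UMIs of the 19 enzymes in HC (SD over 13523 cells) and 1.70 ± 1.76 UMIs in NC (SD over 13508 cells). The median was 2 UMIs in HC and 1 UMI in NC, and the 95th percentile 6 UMIs in HC and 5 UMIs in NC. No enzyme UMI was found in 18.6% of HC cells (18.0 to 19.3) and 26.3% of NC cells (25.6 to 27.1). Fdps was detected in 38.4% of thinned HC cells and 26.0% of thinned NC cells, and without thinning in 73.9% of HC cells and 58.2% of NC cells. Hmgcs1 was detected in 19.1% of thinned HC cells and 14.8% of thinned NC cells, and without thinning in 47.5% of HC cells and 38.5% of NC cells. No other cell type was abundant enough to give a background share for these genes. For scale, thinned Csf1r of macrophages was in 0 cells of each library, with an exact upper limit of 0.0273%, and thinned Cd4 in 0.00739% of HC cells and 0 NC cells, with the same limit in NC.

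The difference between libraries was wider in cells without Mki67 than in cells with it. Among cells with Mki67 the enzymes summed to 1200 CPM in HC and 1072 CPM in NC, a log2 ratio of 0.16 (0.15 to 0.18). Fdps, whose count is uncertain, gave 301 CPM of this sum in HC and 217 CPM in NC. Of the 18 enzymes that reached 5 CPM there, 12 were above 0 and 6 below, where 3936 of 8663 genes were above 0. Intervals lay wholly above 0 in 11 of these enzymes and wholly below 0 in 5. At the 25% size 3 members were higher (Mvk, Pmvk and Fdps), where 6.27% of all genes were, with 0 lower, where 7.86% were. With the class set by Mki67 after thinning 1 of these 3 calls was left, Fdps, where 5.94% of all genes were higher. At 1.5-fold 0 members were called either way, where 1.78% of all genes were higher and 1.54% lower. Among cells without Mki67 the enzymes summed to 896 CPM in HC and 646 CPM in NC, a log2 ratio of 0.47 (0.44 to 0.50). There 3 members were at least 1.5-fold higher (Hmgcs1, Pmvk and Fdps), where 1.94% of all genes were, and 0 lower, where 1.92% were. With the class set after thinning the calls of Hmgcs1 (log2 ratio 0.47) and Pmvk (0.56) were lost and Fdps (0.81) was left, where 2.21% of all genes were higher. At the 25% size 12 were higher and 1, Abcg1, lower, where 5.8% and 11% of all genes were. The difference between these classes was not tested. Cells with Mki67 had a median of 8774 UMIs in HC and 9367 UMIs in NC, and cells without it 5172.5 UMIs in HC and 5703 UMIs in NC, and the part of depth in this difference was not tested.

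Fdps stood at 301 CPM in HC and 217 CPM in NC in cells with Mki67 (log2 ratio 0.47), and at 232 CPM in HC and 122 CPM in NC in cells without it (0.93, 0.87 to 0.99), the widest gap of any enzyme there. Hmgcs1 stood at 139 CPM in HC and 126 CPM in NC in cells with Mki67 (0.15), and at 81.0 CPM in HC and 53.2 CPM in NC in cells without it (0.61). Pmvk stood at 89.7 CPM in HC and 58.6 CPM in NC in cells without Mki67 (0.61), and Stard4 at 41.1 CPM in HC and 27.6 CPM in NC (0.57). The oxygen-using steps stood at 261 CPM in HC and 267 CPM in NC in cells with Mki67 (-0.033), and at 172 CPM in HC and 139 CPM in NC in cells without it (0.30). Abcg1 was lower in HC in both classes, at 9.96 CPM in HC and 11.4 CPM in NC with Mki67 (-0.20) and at 20.8 CPM in HC and 26.4 CPM in NC without it (-0.34), but with thinned members the value without Mki67 was -0.063 and with 2 or more Mki67 UMIs it was -0.013. With Mki67, Abca1 had 27 UMIs in HC and 36 UMIs in NC, its interval includes 0 (-1.45 to 0.09), and its log2 ratio lay between -1.003 and 0.85 under the alternatives tried.

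HC held more cells with Mki67, and these carried more of the pathway, so both libraries were also set to the same mix, 72.56% of UMIs from cells with Mki67. The enzymes then stood at 1117 CPM in HC and 955 CPM in NC, a log2 ratio of 0.23, against 0.30 as measured. The mevalonate steps stood at 672 CPM in HC and 532 CPM in NC (0.34), the later steps at 445 CPM in HC and 423 CPM in NC (0.073) and the LXR-type genes at 32.0 CPM in HC and 34.6 CPM in NC (-0.11). At this mix Fdps stood at 0.56, just inside 1.5-fold, against 0.64 as measured, so that 0 members were called at that size, where 1.65% of all genes were higher. Abcg1 stood at -0.26, so that 0 were lower at the 25% size, where 7.96% of all genes were.

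**Figure D2:**
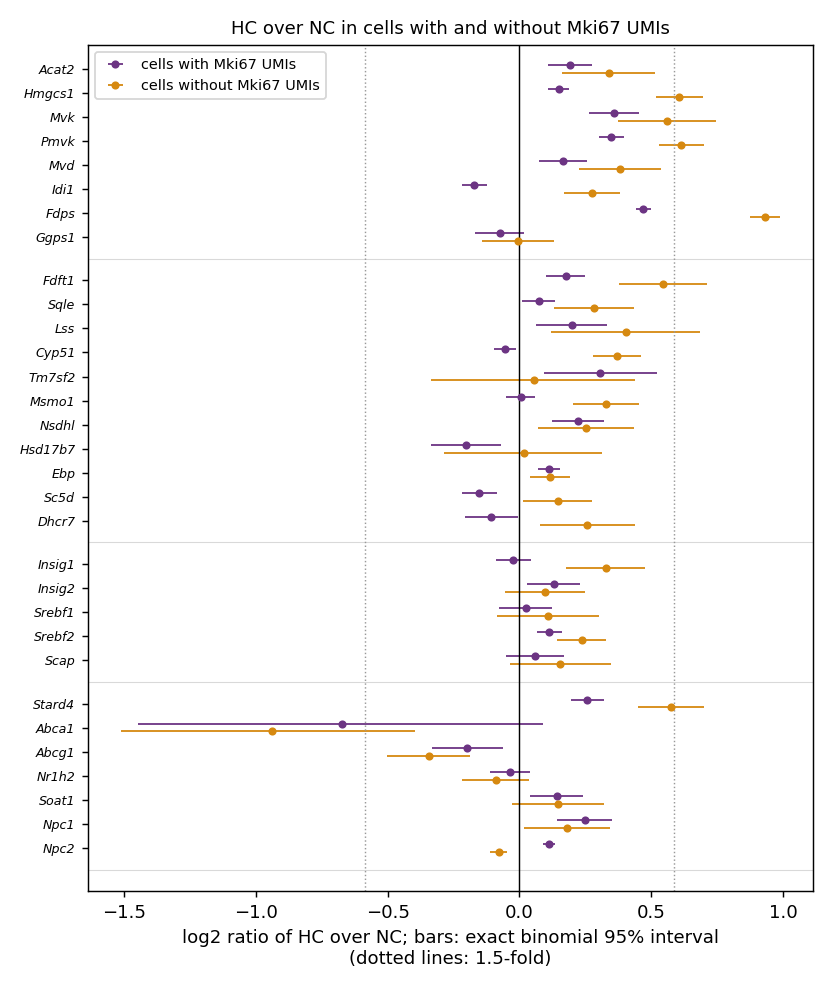
Log2 ratio of HC over NC for each gene, in cells with Mki67 UMIs and in cells without, with exact binomial 95% intervals for counting error only and dotted lines at 1.5-fold. Cells without Mki67 lie to the right for most synthesis enzymes, with Fdps at 0.47 in cells with Mki67 and 0.93 in cells without, while Abcg1 lies left of 0 in both.

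Within each library, cells with Mki67 carried more of the synthesis route and less of the export side. In HC the enzymes stood at 1200 CPM with Mki67 and 896 CPM without (log2 ratio 0.42), and in NC at 1072 CPM with and 646 CPM without (0.73). In HC 7 members were at least 1.5-fold higher and 1 lower in cells with Mki67, where 11.7% of all genes were higher and 3.89% lower. In NC 13 were higher and 2 lower, where 10.5% of all genes were higher and 4.33% lower. At the 25% size the counts were 14 higher and 3 lower in HC, where 23.7% and 13.2% of all genes were, and 19 higher and 3 lower in NC, where 21.3% and 14.7% were. Cells with a Mki67 UMI are deeper, and after Mki67 and the members were counted in cells thinned to 2000 UMIs the count higher by 1.5-fold was 1 in HC, where 7.84% of all genes were, and 9 in NC, where 8.14% were. The count in HC after thinning was thus below the share over all genes.

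Sqle stood at 51.1 CPM with Mki67 and 26.2 CPM without in HC (0.96), and at 48.6 CPM with and 21.6 CPM without in NC (1.17). Hmgcs1 stood at 139 CPM with and 81.0 CPM without in HC (0.78) and at 126 CPM with and 53.2 CPM without in NC (1.24), the widest ratio of any enzyme in that library. Fdft1 stood at 0.74 in HC and 1.11 in NC, Msmo1 at 0.67 in HC and 0.997 in NC, and Idi1 at 0.55 in HC and 0.998 in NC on the log2 scale. All 4 oxygen-using genes were above 0 in both libraries. Dhcr7 was nearest to 0 in HC among the late steps, at 19.2 CPM with and 18.5 CPM without (0.057).

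Some members ran the other way in both libraries. Ggps1 stood at 21.8 CPM with Mki67 and 29.9 CPM without in HC (-0.46), and at 23.0 CPM with and 30.02 CPM without in NC (-0.39). Insig1 and Insig2, which share the retention role, were on opposite sides: Insig1 at 44.6 CPM with and 27.2 CPM without in HC (0.71) and 45.3 CPM with and 21.7 CPM without in NC (1.07), and Insig2 at 20.3 CPM with and 24.5 CPM without in HC (-0.27) and 18.5 CPM with and 22.9 CPM without in NC (-0.31). Abcg1 stood at 9.96 CPM with and 20.8 CPM without in HC (-1.06) and at 11.4 CPM with and 26.4 CPM without in NC (-1.21). Abca1 had 27 UMIs in HC cells with Mki67 and 37 UMIs in HC cells without (-2.41), and 36 UMIs with and 120 UMIs without in NC (-2.68). Npc2 stood at 399 CPM with and 553 CPM without in HC (-0.47) and at 369 CPM with and 584 CPM without in NC (-0.66). Srebf1, which like the exporters is LXR-type, was on the other side from them, at 0.32 in HC and 0.41 in NC. Npc1 stood at 19.8 CPM with and 21.8 CPM without in HC (-0.14, with an interval that includes 0) and at 16.7 CPM with and 19.2 CPM without in NC (-0.20).

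**Figure D3:**
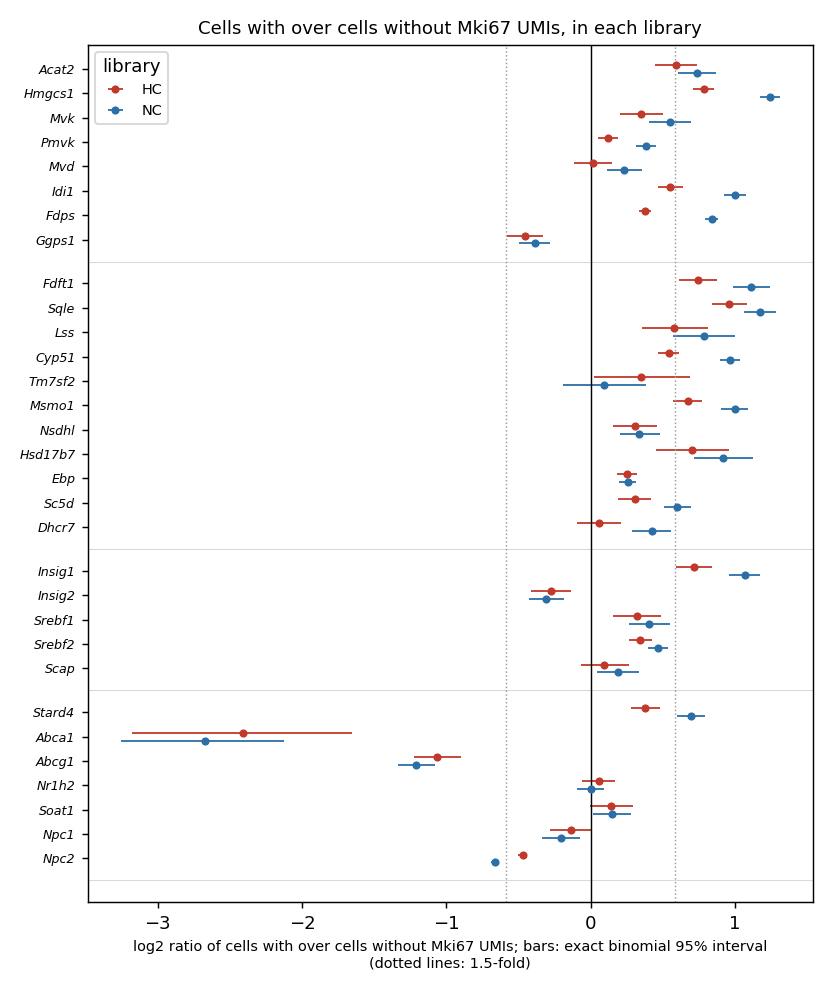
Log2 ratio of cells with Mki67 UMIs over cells without, for each gene in the HC and NC libraries, with exact binomial 95% intervals for counting error only and dotted lines at 1.5-fold. Most enzymes lie right of 0 and further right in NC, with Hmgcs1 at 0.78 in HC and 1.24 in NC, while Abca1, Abcg1, Npc1, Npc2, Ggps1 and Insig2 lie left of 0 in both.

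By number of Mki67 UMIs, taken as 0, as 1 to 2 and as 3 or more, the enzymes stood at 896, 1237 and 1190 CPM in the HC classes and at 646, 996 and 1101 CPM in the NC classes. Both libraries thus rose from 0 to 1 to 2 UMIs. From there to 3 or more UMIs the sum fell in HC, with intervals of 1222 to 1253 and 1182 to 1198 CPM, and rose in NC. Median depth in these upper classes was 6548 and 9707.5 UMIs in HC, and 6017.5 and 11719 UMIs in NC. The part of depth was not tested. Over the same classes the LXR-type genes stood at 38.0, 32.1 and 29.1 CPM in the HC classes and at 43.9, 34.3 and 29.8 CPM in the NC classes. Between the upper classes the LXR-type intervals overlapped in HC and not in NC.

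Cells were also parted by genes of activation or low oxygen. Bnip3, induced by low oxygen, was found in 21.8% of HC cells and 6.92% of NC cells. In cells with Bnip3 the enzymes stood at 1341 CPM in HC and 1086 CPM in NC, and in cells without it at 1059 CPM in HC and 909 CPM in NC. Cells with Il2ra, the interleukin receptor chain of activated T cells, had 1295 CPM in HC and 1004 CPM in NC, and those without it 1060 CPM in HC and 902 CPM in NC. Cells with Xcl1, a chemokine, had 1231 CPM in HC and 1013 CPM in NC, and those without it 1128 CPM in HC and 870 CPM in NC. In cells with Gzmb, a killing protease, the values were 1220 CPM in HC and 985 CPM in NC, and in those without it 913 CPM in HC and 843 CPM in NC. For each of these genes, cells with it were deeper and more often held Mki67 in both libraries. For Bnip3 the median was 9590 UMIs with and 6909 UMIs without in HC, and 10378.5 UMIs with and 6737 UMIs without in NC. Mki67 was in 76.9% with and 67.1% without in HC, and 70.4% with and 52.1% without in NC. The part of depth and of Mki67 in these levels was not tested. In all 8 classes the summed enzymes were higher in HC and the summed LXR-type genes lower in HC. In cells without Gzmb the mevalonate steps alone gave this, at a log2 ratio of 0.21. There the genes from squalene to cholesterol stood at -0.011 (-0.045 to 0.023) and the oxygen-using steps at -0.10 (-0.15 to -0.05). In the other classes the genes from squalene to cholesterol were higher in HC. The LXR-type sum includes Srebf1, which over all cells was higher in HC (log2 ratio 0.090). The LXR-type genes were not read singly in these classes. The intervals of the LXR-type log2 ratios include 0 in cells with Il2ra and in cells with Xcl1. Split by both Gzmb and Mki67, cells with Mki67 and no Gzmb were the exception among the 4 classes, at 990 CPM in HC and 1061 CPM in NC.

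**Figure D4:**
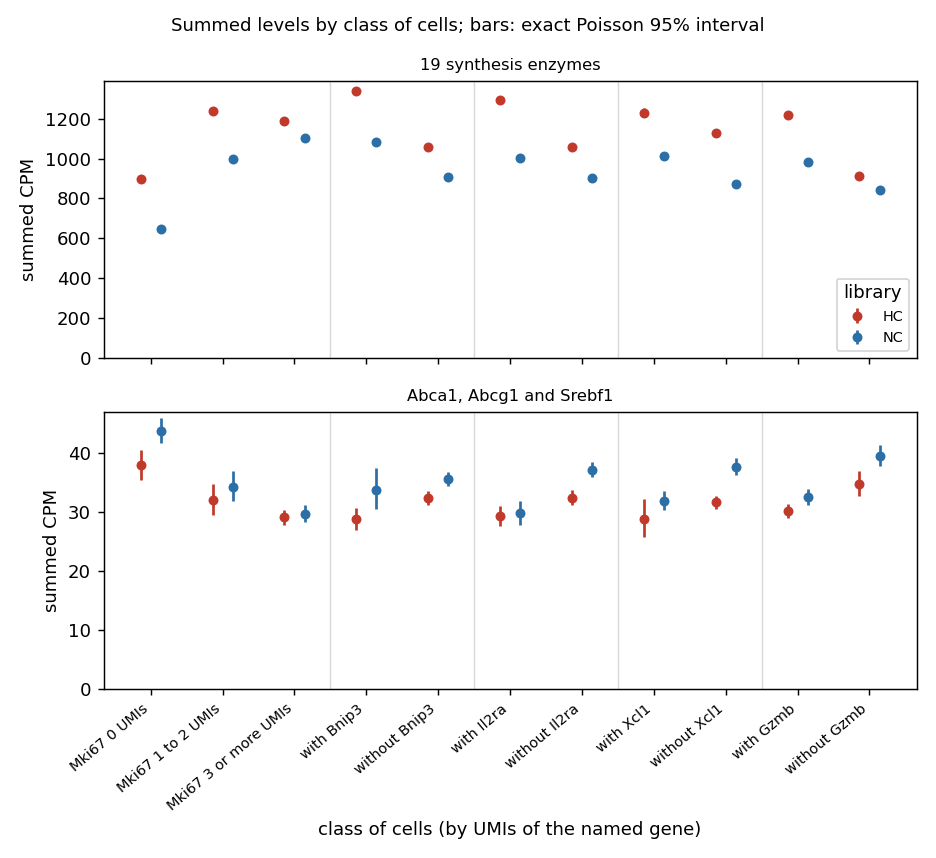
Summed CPM of the 19 synthesis enzymes (upper panel) and of Abca1, Abcg1 and Srebf1 (lower panel) in classes of cells cut by UMIs of Mki67, Bnip3, Il2ra, Xcl1 and Gzmb, in the HC and NC libraries, with exact Poisson 95% intervals for counting error only. The enzymes are higher in HC in every class shown and the LXR-type sum is lower in HC in every class shown, with intervals that overlap in some.

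Enzyme levels also went together over cells. Cells thinned to 2000 UMIs were ranked by the mean of the other enzymes, each as the log of 1 plus its counts per 10000 UMIs. The top 25% were set against the bottom 25%, 3380 cells each in HC and 3377 cells each in NC. Tied cells were kept in barcode order. In NC 26.3% of cells held no enzyme UMI, so the bottom 25% there were taken from tied cells by that order. Hmgcs1 was at 192 CPM in the top and 69.2 CPM in the bottom cells of HC (log2 ratio 1.47), and at 171 CPM in the top and 45.5 CPM in the bottom cells of NC (1.91). Ggps1 was at 25.1 CPM in the top and 27.4 CPM in the bottom cells of HC (-0.12) and at 23.7 CPM in the top and 31.2 CPM in the bottom cells of NC (-0.40). Insig1 stood at 1.18 in HC and 1.72 in NC and Insig2 at -0.15 in HC and 0.022 in NC on the log2 scale. Abcg1 was at 9.02 CPM in the top and 22.3 CPM in the bottom cells of HC (-1.31), and at 11.7 CPM in the top and 24.3 CPM in the bottom cells of NC (-1.05). Npc2 stood at -0.40 in HC and -0.54 in NC on the log2 scale. Ranked for Insig1, the top cells held Mki67 in 79.0% of HC cells and 70.6% of NC cells, and the bottom cells in 59.97% of HC cells and 39.98% of NC cells, and the part of Mki67 in these ratios was not tested. As Pearson correlations over thinned cells with the mean of the other enzymes, Hmgcs1 had the highest of the 19, 0.194 in HC (n = 13523) and 0.239 in NC (n = 13508), and Ggps1 the lowest, -0.0013 in HC and -0.016 in NC. Among the 8675 genes that are not members the highest value was 0.197 in HC and 0.281 in NC, above Hmgcs1, and 4 enzymes in HC and 5 in NC lay below the 95th percentile of those genes, 0.0374 in HC and 0.0450 in NC. These values rest on sparse counts from cells that share a library, and are given as a description.

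**Figure D5:**
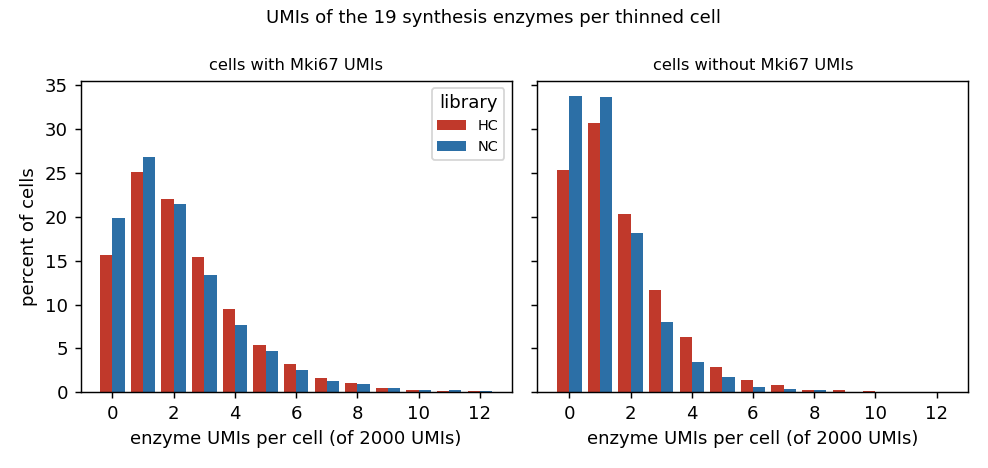
Percent of cells with a given number of UMIs of the 19 synthesis enzymes after thinning each cell to 2000 UMIs, for cells with Mki67 UMIs (left) and without (right), in HC and NC; the axis ends at 12 UMIs and the highest count was 19. Cells with 0 enzyme UMIs made up 15.6% of HC cells and 19.8% of NC cells with Mki67, and 25.3% of HC cells and 33.8% of NC cells without it.

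A further 6 lists of genes around the pathway were set beside the members, each chosen for its role. At the 25% size 7.61% of all genes were higher in HC and 7.69% lower, so that counts of 0 or 1 in lists this short are near the background. Of the 15 genes of prenylation and dolichol 14 reached 5 CPM and 0 were called at the 25% size in HC over NC, with Rabggtb at 23.1 CPM in HC and 27.5 CPM in NC (-0.25). Of the 11 genes of SREBP processing and its NF-Y partners 10 reached it and 0 were called, with Nfyc at 17.7 CPM in HC and 21.4 CPM in NC (-0.27). Among 13 sterol traffic genes 11 reached it and 0 were called, with Gramd1b at 26.1 CPM in HC and 30.9 CPM in NC (-0.25). In the list set up for the LXR side 3 of 6 reached it, and Abca7, a lipid transporter, was higher at that size, at 20.7 CPM in HC and 16.0 CPM in NC (0.37). Whether LXR controls Abca7 in these cells was not tested, so its value is not read as LXR activity. Of the 5 genes that supply acetyl-CoA all 5 reached it, and Slc25a1, which exports citrate from mitochondria, was higher at that size, at 21.1 CPM in HC and 16.5 CPM in NC (0.35). Of 5 oxysterol genes 1 reached it, the receptor Gpr183, at 12.2 CPM in HC and 11.0 CPM in NC (0.15). Their medians on the log2 scale were -0.068, -0.041, 0.041, 0.11, 0.085 and 0.15 in that order, against -0.029 over all genes.

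Within the libraries, Tmem97, which binds NPC1 and is induced by SREBP2, was among the widest of its list in cells with Mki67, at 41.2 CPM with and 17.3 CPM without in HC (1.254) and at 48.3 CPM with and 22.0 CPM without in NC (1.14). It was lower in HC than in NC in both classes, with log2 ratios of -0.23 with Mki67 and -0.34 without, unlike most SREBP2-type members. In cells without Mki67 the list of SREBP processing and NF-Y partners had a median of -0.22, and 2 of its 10 genes were lower at the 25% size (Nfyc at -0.51 and Tmem97), where 11% of all genes were. Pdss1, which makes the tail of ubiquinone, stood at 6.497 CPM with and 2.85 CPM without in HC (1.19) and at 8.11 CPM with and 3.83 CPM without in NC (1.08). Lipa, the lysosomal lipase that frees cholesterol from esters, ran the other way at 16.0 CPM with and 22.2 CPM without in HC (-0.47) and 14.8 CPM with and 20.6 CPM without in NC (-0.48), as did Gramd1b at -0.49 in HC and -0.39 in NC.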

How the data were processed

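Both libraries held deposited counts: UMIs per gene and barcode, not normalised. Per the file headers they come from Cell Ranger 6.1.2. In the submitters' processing notes the versions are Cell Ranger 5.0.0 and Seurat 3.2.3, with the build mm10 and no role or order. How barcodes were kept is not given in the sources used here. The members, lists and tests were chosen with earlier results of these data known.

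Kept cells had at least 500 genes, at least 1000 UMIs and at most 10% mitochondrial UMIs. Doublets were not removed and no caller was run. UMIs were summed per library or class and divided by the total. CPM carry exact Poisson intervals, shares exact Clopper-Pearson intervals and log2 ratios exact binomial intervals, at 95%. PCR duplicates are collapsed by UMI, but intervals and floors (3 counts) cover counting error only. All 31 members are named, and up to 3 genes of each further list by size of ratio. The ratio and calling steps were run on simulated library totals with Poisson counting error only. All 80 genes altered 2-fold were called, and 0 of 8419 unaltered genes were called at 1.5-fold in all cells. In cells without Mki67, 66 of 8351 unaltered genes passed the 25% size. In all cells 95.3% of intervals held the true ratio. The simulation shares the counting model of the intervals and holds no variation between libraries, so it checks the arithmetic only. Summing over cells was not simulated. Annotation was GENCODE vM21 and promoters were from RefSeq on GRCm38.p6. The tools were numpy 2.4.6, pandas 2.3.3, scipy 1.17.1 and matplotlib 3.10.9 under Python 3.11.15, and R 4.3.3, where edgeR 4.0.16 and DESeq2 1.42.0 gave scaling factors for alternatives only.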

Additional observations from a re-analysis of the deposited data

Results flagged for a closer look

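In 5 genes the log2 ratio of HC over NC lay on opposite sides of 0 in cells with and without Mki67 UMIs, each with an interval that leaves out 0. The difference itself was not tested, since there was 1 library per group. Idi1 stood at -0.17 in cells with Mki67 and 0.28 in cells without. Cyp51 stood at -0.055 with and 0.37 without, Sc5d at -0.15 and 0.14, and Dhcr7 at -0.11 and 0.26. Npc2 had the reverse order, at 0.11 with Mki67 and -0.079 without. With thinned members the contrast was smaller for some: without Mki67 Sc5d stood at 0.043 and Idi1 at 0.041, and with Mki67 Npc2 stood at 0.0082. With the class set after thinning, Sc5d without Mki67 stood at 0.039.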

How the results depend on the processing

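No paired analysis was possible because each group has 1 sample. Scaling moved no direction of the summed lists, and the median of all genes moved by less than 0.1 under every scaling run. In HC over NC over all cells, the count higher by 1.5-fold was 0 at 2-fold and 0 at the same Mki67 mix, where Fdps stood at 0.56; the count lower by 1.5-fold was 1 with a minimum of 1 CPM; and the count lower at the 25% size was 2 with a minimum of 1 CPM, 0 with a minimum of 20 CPM and 0 at the same mix. The summed SREBP2-type log2 ratio, 0.29, was 0.30 with TMM factors, 0.31 with each cell weighted alike, 0.30 after thinning, 0.32 at no more than 5% mitochondrial UMIs, 0.31 without the 5% deepest cells, 0.22 at the same mix and 0.21 without Fdps, a choice made after seeing the data. In cells with Mki67 the count higher at the 25% size was 1 with the class set after thinning and 1 with 2 or more Mki67 UMIs, the count lower was 1 with thinned members, and the sum was 0.12, 0.12 and 0.14 in these settings. In cells without Mki67 the count higher by 1.5-fold was 1 with the class set after thinning, the count lower at the 25% size was 0 with thinned members, and the sum was 0.39 in both. For cells with over without Mki67 after thinning, the counts higher in HC were 1 and 5 at 1.5-fold and at the 25% size, with a sum of 0.19 (0.38 without the deepest cells), and in NC the count lower by 1.5-fold was 1, with sums of 0.50 (0.68) and, for the LXR-type genes, -0.38. Of 558 values of single genes under the alternatives, 530 lay on the same side of 0 as measured, 430 within its counting interval and 100 outside it, and 28, from 15 genes, lay on the other side. In 22 of the 28 the measured interval includes 0, among them Abca1 with Mki67 at 0.85 and Hsd17b7 without it at -0.21 with thinned members, and Dhcr7 with over without Mki67 in HC at -0.12 after thinning. In the other 6 it leaves out 0: Tm7sf2, at -0.085 in all cells, -0.14 with Mki67 and -0.065 in HC with over without Mki67, Sqle at -0.023 with Mki67 and Soat1 at -0.032 in NC with over without Mki67, all after thinning, and Npc2 at 0.043 at the same mix. The cause of these shifts was not tested. Another 94 summary values stayed within 1.5 times of the count or within the counting interval. Depth limits Abca1 and Tm7sf2, which lay below 5 CPM.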
